A study of Homo sapiens with 60 samples.

Results

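The 10 genes described here belong to the circadian clock: PER1, PER2, PER3, CRY1, CRY2, NR1D1, NR1D2, DBP, BHLHE40 and CIART. They were taken by name, as the rows of the deposited count table whose Ensembl identifiers carry these symbols, with no use of their levels, and they are 10 of the 60675 genes in that table. Of the 10, 9 had enough reads to be among the 16925 genes tested. CIART was not tested, with 0 to 8 counts in a library and no count in 6 of 60 libraries.

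RNA was measured in HepG2, a human hepatocellular carcinoma cell line grown in serum-containing medium, 24 h after addition of DMSO alone or of an herbal extract, of which there were 8, each at 3 doses. The hot-water extracts were Yijin-tang (yijin) and Soshiho-tang (soshiho), and the 70% ethanol extracts were Liriopis seu Ophiopogonis Tuber (liriope), Schisandrae Fructus (schisandra), Longan Arillus (longan), Zizyphi Semen (zizyphus), Polygalae Radix (polygala) and Aucklandiae Radix (aucklandia). Cells received 500 (high), 100 (medium) or 20 µg/mL (low) of an extract. Polygala was given at 250, 50 and 10 µg/mL and aucklandia at 280, 56 and 11.2 µg/mL, whose top dose was lowered, per the series text, to the concentration that cost 20% of viability. Each group had 3 libraries, except soshiho with 2 per dose and polygala and aucklandia with 1 per dose. The vehicle is 0.1% DMSO in the sample labels and 2% in the series text. The labels give no hour of harvest and no step that would synchronise the cells, so a level here is an average over cells of unknown clock phase. Whether replicates are separate cultures is also not stated, so p-values measure the spread between these libraries, which may be technical.

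Library totals ran from 20.7 to 38.0 M counts. The summed level of 8 hepatocyte markers, such as ALB and APOB, was 38187 to 51476 CPM (counts scaled to the total of the library, in the usual per-million unit) in the 54 libraries of replicated groups. COL1A2 and DCN of fibroblasts, PTPRC and CD3E of leukocytes and KDR of endothelium reached at most 2 counts in any library, while other genes of those lists were present in vehicle, LYZ at 994 CPM, CD68 at 48.5 CPM, PDGFRB at 12.6 CPM and PECAM1 at 4.25 CPM. Against the mean of their own group, 2 libraries stood apart in a check over all well-expressed genes, replicate 1 of low-dose schisandra and replicate 2 of high-dose liriope. The sample codes set the vehicle apart from all treated libraries, so treatment and code set cannot be told apart in any comparison with vehicle, and the dose comparison within an extract is therefore given first. Yijin and soshiho share a code set, as do liriope and schisandra, longan and zizyphus, and polygala and aucklandia.

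The mammalian clock is a transcriptional feedback loop. BMAL1 with CLOCK or NPAS2 binds E-boxes and switches on the PER and CRY genes, whose proteins return to the nucleus and repress that activation, while the REV-ERB receptors coded by NR1D1 and NR1D2 repress BMAL1 and compete with the ROR receptors. DBP, a PAR bZIP factor acting at D-boxes, carries the rhythm to output genes, and BHLHE40 (DEC1) and CIART (CHRONO) are further repressors at E-boxes. In liver these genes are among the most strongly rhythmic transcripts and tie metabolism to time of day, and several also answer to hormones, hypoxia and stress.

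Motifs known from the clock loop were searched in the RefSeq promoter windows of these genes, taken as the 250 bases before each annotated start (build GRCh38.p14). All 10 genes matched, through 13 windows. An exact E-box (CACGTG) lay in windows of 4 genes (PER1, NR1D2, BHLHE40 and CIART) and in 6.34% of all 35116 windows. An E-prime box (CACGTT, or AACGTG on the other strand) lay in windows of 4 genes (PER2, CRY1, CRY2 and NR1D1) and in 4.55% of all windows. A D-box (TTANGTAA, both strands) lay in windows of PER3 and NR1D2 and in 1.98% of all windows, and the full ROR and REV-ERB response element (RORE), searched on both strands, was in none of the 13 and in 0.47% of all windows. The stretches of PER2, PER3, NR1D1, NR1D2 and BHLHE40 are shown because these genes hold a match and are among those with called or at least 2-fold differences in the comparisons that follow. They read 5′ to 3′ on the strand of the gene, with the matched motif in capitals, and were trimmed to bases outside exons annotated in GENCODE 29, except the BHLHE40 stretch, which is the motif with its neighbours.
PER2: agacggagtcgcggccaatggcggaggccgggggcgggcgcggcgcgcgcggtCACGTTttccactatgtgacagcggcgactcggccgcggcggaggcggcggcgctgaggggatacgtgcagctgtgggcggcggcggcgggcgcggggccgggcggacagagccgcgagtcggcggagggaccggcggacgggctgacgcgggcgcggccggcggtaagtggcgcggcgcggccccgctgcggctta
PER3: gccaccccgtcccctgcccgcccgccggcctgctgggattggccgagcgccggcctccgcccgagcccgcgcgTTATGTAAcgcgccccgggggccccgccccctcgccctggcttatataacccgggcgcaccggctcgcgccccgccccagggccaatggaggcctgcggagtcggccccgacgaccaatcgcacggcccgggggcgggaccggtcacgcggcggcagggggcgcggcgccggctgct
NR1D1: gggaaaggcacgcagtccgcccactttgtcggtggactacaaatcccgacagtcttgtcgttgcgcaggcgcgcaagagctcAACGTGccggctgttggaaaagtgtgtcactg
NR1D2: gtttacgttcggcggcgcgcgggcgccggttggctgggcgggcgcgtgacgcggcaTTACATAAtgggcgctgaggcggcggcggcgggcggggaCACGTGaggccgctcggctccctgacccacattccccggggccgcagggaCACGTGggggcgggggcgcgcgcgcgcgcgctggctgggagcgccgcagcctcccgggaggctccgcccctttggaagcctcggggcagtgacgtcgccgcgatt
BHLHE40: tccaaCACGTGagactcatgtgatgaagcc
The PER2 stretch is chr2:238288611-238288860 on the minus strand, and its E-prime box begins 197 bases before the start. The PER3 stretch is chr1:7784041-7784290 on the plus strand, with the D-box 177 bases before the start. The NR1D1 stretch is chr17:40100726-40100839 on the minus strand, with the E-prime box 168 bases before the start. The NR1D2 stretch is chr3:23945871-23946120 on the plus strand and holds a D-box at 194 bases and E-boxes at 155 and 105 bases before the start, and the BHLHE40 stretch is chr3:4979187-4979216 on the plus strand, with the E-box at 245 bases. The DBP window held none of the 4 motifs. A match is a run of letters in this window, not a measured binding site.

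In vehicle the genes were compared per length, as CPM per kilobase of the longest principal coding transcript. NR1D1 was highest at 8.86 ± 0.23 (SD, n = 3), followed by CRY1 at 6.38 ± 0.32, BHLHE40 at 6.09 ± 0.29, PER2 at 5.51 ± 0.35 and CRY2 at 5.21 ± 0.59 CPM per kilobase. PER1 followed at 3.44 ± 0.15, NR1D2 at 2.69 ± 0.15, DBP at 2.69 ± 0.26, PER3 at 2.23 ± 0.11 and CIART at 0.054 ± 0.024 CPM per kilobase. The ranges of the 3 vehicle libraries overlapped between the neighbours CRY1 and BHLHE40, PER2 and CRY2, and NR1D2 and DBP, and not between the other neighbours. All 9 tested genes were thus well above CIART in this line.

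Over the 19 replicated groups DBP and BHLHE40 varied most, followed by the PER genes, and CRY1 varied least. The ratio of the highest to the lowest group mean was 1.93 for DBP and 1.90 for BHLHE40, then 1.43 for PER3, 1.36 for PER2, 1.32 for PER1, 1.28 for NR1D2, 1.27 for NR1D1, 1.24 for CRY2 and 1.16 for CRY1. The median ratio was 1.21 over 10700 tested genes of at least 5 CPM in vehicle, with an upper quartile of 1.29, which DBP, BHLHE40 and the 3 PER genes exceeded. BHLHE40 and DBP also spread most within groups, with pooled coefficients of variation of 13.2% and 10.8%, against 4.44% for CRY1.

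**Figure D1:**
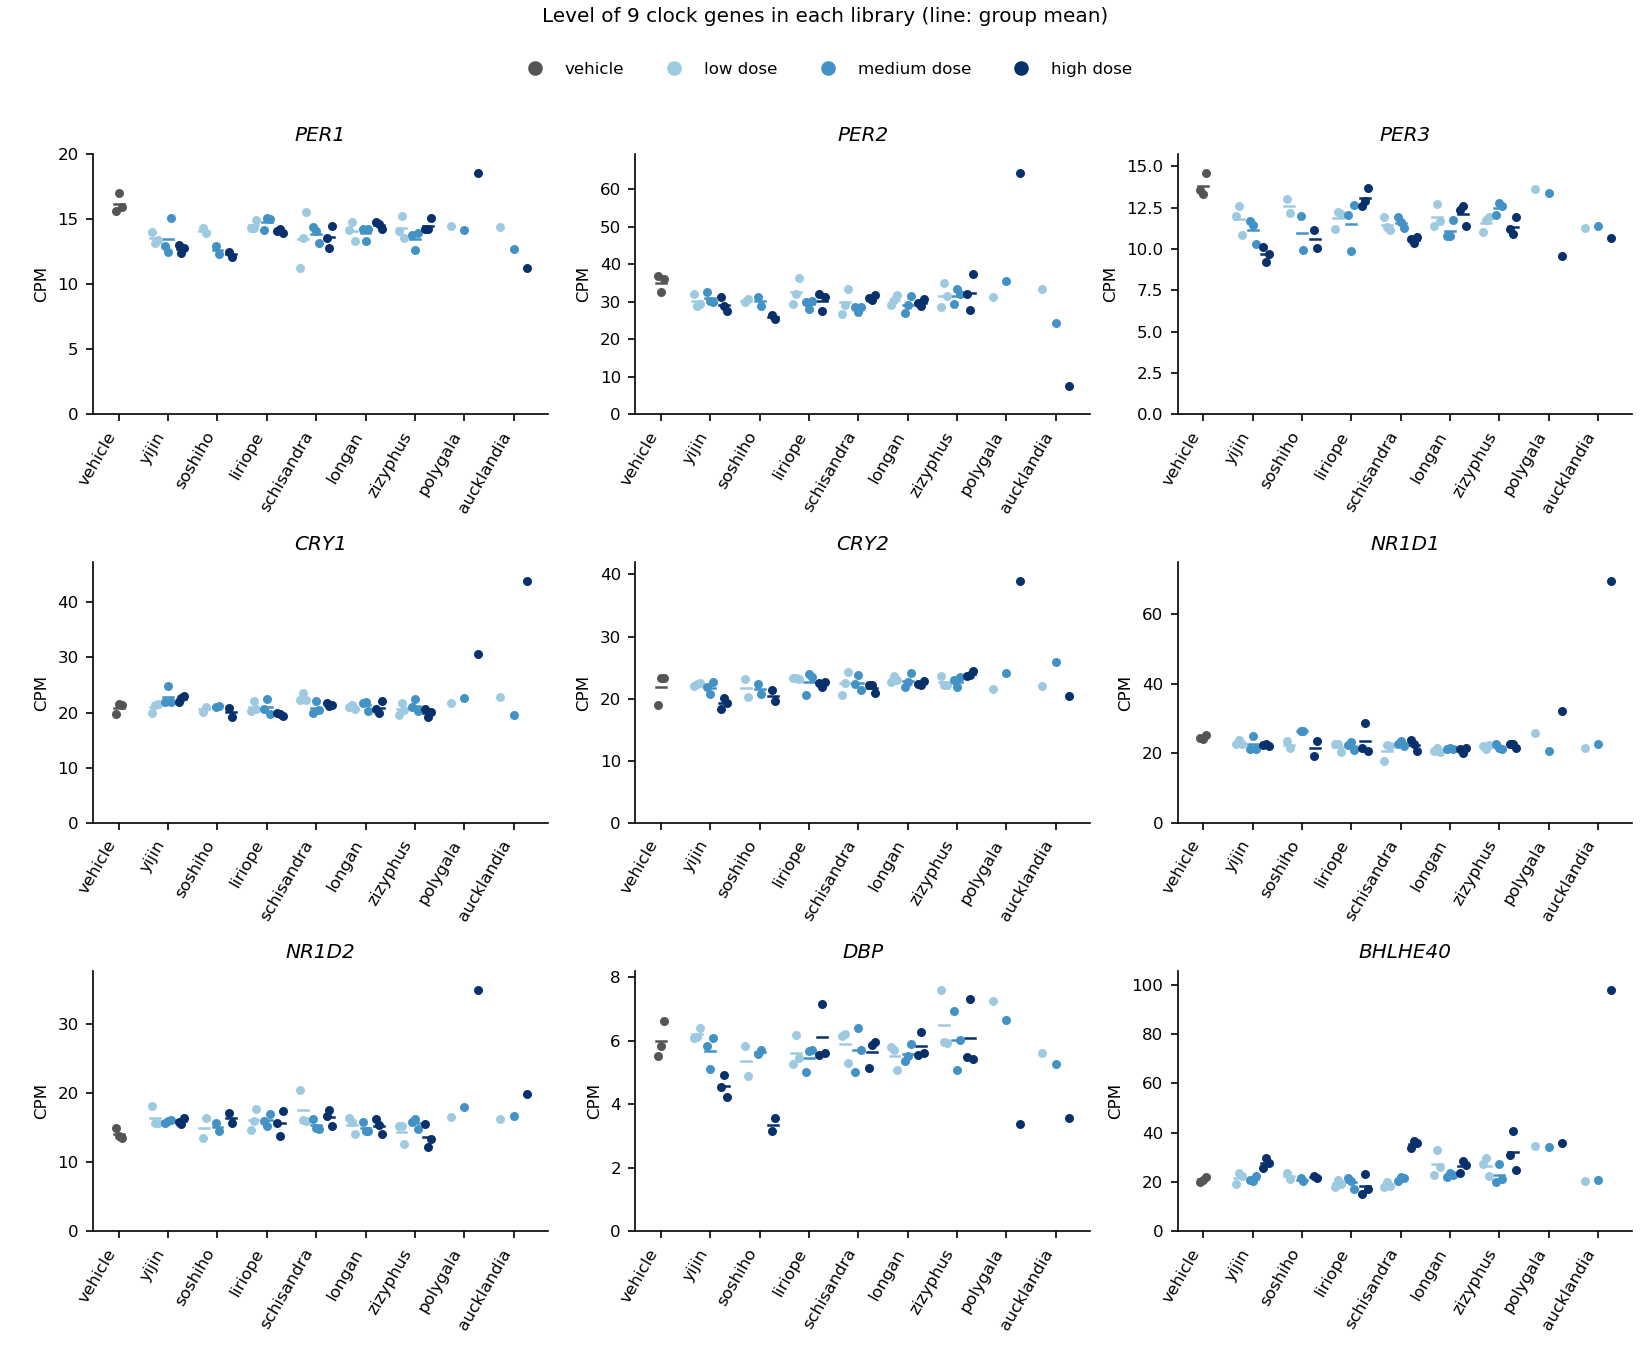
Level of the 9 tested clock genes in each of 60 libraries, in CPM, by extract and dose (shade of blue) with vehicle in grey; each point is 1 library and each short line the mean of a group with 2 or 3 libraries. High-dose schisandra stands above its lower doses for BHLHE40, high-dose soshiho lies lowest among replicated groups for DBP, and the high doses of polygala and aucklandia lie far from the rest for several genes.

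Between the high and the low dose, clock genes passed the test in 3 of 6 replicated extracts (yijin, soshiho and schisandra). In yijin 3 of 9 members fell (PER3, CRY2 and DBP) and 0 rose, where 7.79% of all tested genes were called and 4.01% were lower. In soshiho 1 of 9 fell (DBP), where 5.08% of all tested genes were called and 2.27% were lower, and in schisandra 1 of 9 rose (BHLHE40), where 7.33% were called and 3.92% were higher. In liriope, longan and zizyphus 0 of 9 were called by edgeR's quasi-likelihood test, where 0.0295%, 0.0177% and 0.0355% of tested genes were called; 0 also passed an unadjusted p under 0.05, and DESeq2 called 0. The median log2 change of the 9 members was -0.05 in yijin, -0.10 in soshiho and -0.04 in schisandra, beside medians over all tested genes of -0.0027 in yijin, -0.0016 in soshiho and -0.0058 in schisandra. In bulk RNA, fewer cells expressing a gene and less of its RNA per cell cannot be told apart.

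Markers of other cell types moved in the same 3 comparisons, where 7.79% (yijin), 5.08% (soshiho) and 7.33% (schisandra) of all tested genes were called. Of 4 leukocyte markers, LYZ was higher at the high dose in all 3 and CD68 in schisandra, and the summed level went from 1216 to 1225 CPM to 1645 to 1734 CPM in yijin, from 1152 to 1188 CPM to 1562 to 1610 CPM in soshiho and from 1154 to 1375 CPM to 1654 to 1749 CPM in schisandra. Of the same list PTPRC, carried by leukocytes in general, and CD3E, of T cells, had at most 2 counts in any library. In vehicle the leukocyte sum was mostly LYZ (994 CPM, with CD68 at 48.5 CPM). Of 4 fibroblast markers COL1A1 alone was called, lower in high-dose soshiho. The fibroblast sum there went from 9.68 to 11.7 CPM at the low dose to 6.41 to 8.60 CPM at the high dose. In vehicle that sum was mostly PDGFRB (12.6 CPM, with COL1A1 at 1.07 CPM). Of 8 hepatocyte markers 3 were lower in high-dose yijin, TTR was higher and FGB lower in high-dose schisandra, and in soshiho, with none called, their sum went from 44367 to 45677 CPM to 38187 to 39847 CPM. The part of these differences in the clock gene levels was not tested.

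**Figure D2:**
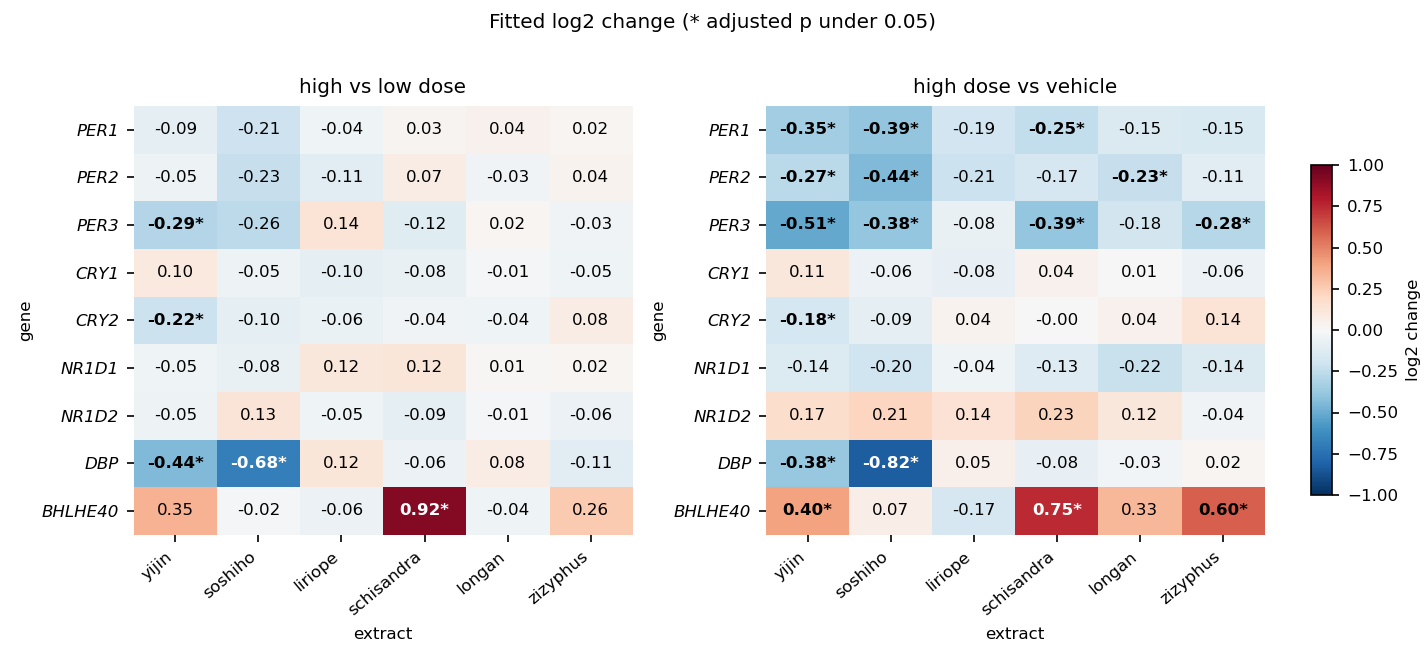
Fitted log2 change of each tested clock gene (rows) in each replicated extract (columns), for high against low dose (left) and high dose against vehicle (right); red is higher and blue lower at the high dose, and a star marks an adjusted p under 0.05. Both panels use the same high-dose libraries. BHLHE40 in schisandra (0.92) and DBP in soshiho (-0.68) are the strongest colours on the left, and the PER rows are blue across the right.

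PER1, PER2 and PER3 code for the period proteins, the limiting partners in the repressor complex, and in the annotation (GENCODE 29, GRCh38) lie at chr17:8140472-8156506, chr2:238244038-238290102 and chr1:7784320-7845177. PER3 was at 11.99, 12.6 and 10.8 CPM in the 3 low-dose yijin libraries, 11.7, 11.5 and 10.3 CPM at the medium dose and 10.1, 9.23 and 9.71 CPM at the high dose. Every high-dose library lay below every low-dose library, and the medium dose lay between, overlapping the low dose only. The log2 change from low to high dose was -0.29 (SE 0.08), with an adjusted p of 0.00922 by edgeR's quasi-likelihood test and Benjamini-Hochberg adjustment, and it did not pass with replicate 2 of either dose left out (adjusted p = 0.0764 without the high-dose and 0.0964 without the low-dose library). With no filter on low counts the edgeR adjusted p was 0.0804. PER3 shares 868 exon bases with UTS2 on the opposite strand, and UTS2 had no counts in vehicle.

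In soshiho PER3 was at 13.0 and 12.2 CPM at the low dose and 11.1 and 10.1 CPM at the high dose. The libraries did not overlap, but the log2 change of -0.26 (SE 0.09) did not pass the test (edgeR adjusted p = 0.108). PER2 in soshiho was at 29.9 and 30.8 CPM at the low dose, 31.4 and 28.9 CPM at the medium dose and 26.5 and 25.4 CPM at the high dose, again without overlap of high and low, with a log2 change of -0.23 (SE 0.11, edgeR adjusted p = 0.272). PER1, which also answers acutely to glucocorticoid and cAMP signals, ran from 12.1 to 14.3 CPM over the 6 soshiho libraries, with a log2 change of -0.21 (SE 0.09, edgeR adjusted p = 0.249). In the other extracts the low-to-high changes of the 3 PER genes lay between -0.12 and 0.14 on the log2 scale, and none passed.

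CRY1 (chr12:106991364-107093829) and CRY2 (chr11:45847118-45883248) code for the cryptochromes, which bind the PER proteins and repress BMAL1 and CLOCK. CRY2 was at 22.1, 22.4 and 22.6 CPM in low-dose yijin, 21.9, 20.7 and 22.6 CPM at the medium dose and 18.3, 20.2 and 19.3 CPM at the high dose. The high-dose libraries were the lowest, with no overlap with the other doses. The log2 change of -0.22 (SE 0.07) had an adjusted p of 0.0295 by edgeR's quasi-likelihood test. The call was lost without filtering (adjusted p = 0.136) and without any 1 of these libraries except high-dose replicate 2 (adjusted p of 0.0564 to 0.157).

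CRY1 was the steadiest of the members, at 19.2 to 24.7 CPM over the 54 replicated libraries. Its low-to-high log2 changes ran from -0.10 in liriope to 0.10 in yijin, and none passed. NR1D1 (chr17:40092787-40100725) and NR1D2 (chr3:23945260-23980618), the REV-ERB receptors that repress BMAL1, also showed no called dose change: their low-to-high log2 changes lay between -0.09 and 0.13 in the 6 extracts. The highest NR1D1 value of the 54, 28.6 CPM, was in replicate 2 of high-dose liriope, and its lowest, 17.8 CPM, and the highest NR1D2 value, 20.6 CPM, were in replicate 1 of low-dose schisandra; these are the 2 libraries that stood apart.

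DBP (chr19:48630030-48637438) showed the largest fall of any member between low and high dose in the 6 replicated extracts. In soshiho it was at 5.85 and 4.88 CPM at the low dose, 5.60 and 5.71 CPM at the medium dose and 3.16 and 3.57 CPM at the high dose. Both high-dose libraries lay below every other soshiho library. The log2 change from low to high was -0.68 (SE 0.16, a fold of 0.624), with an adjusted p of 0.0049 by edgeR's quasi-likelihood test. Leaving out replicate 2 ended the call, at an adjusted p of 0.119 without the high-dose and 0.186 without the low-dose library.

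In yijin DBP was at 6.08, 6.12 and 6.40 CPM at the low dose, 5.84, 5.11 and 6.09 CPM at the medium dose and 4.55, 4.93 and 4.24 CPM at the high dose. The high dose did not overlap the other doses, which overlapped each other. The log2 change was -0.44 (SE 0.12, a fold of 0.738), with an adjusted p of 0.0177 by edgeR's quasi-likelihood test. It did not pass without high-dose replicate 1 (adjusted p = 0.0551), high-dose replicate 3 (adjusted p = 0.0951) or low-dose replicate 3 (adjusted p = 0.0692). In the other 4 replicated extracts DBP changed by -0.11 to 0.12 on the log2 scale and was not called.

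The dose change of DBP in soshiho differed from the mean dose change of the other 5 extracts by -0.60 (SE 0.17) on the log2 scale, with an adjusted p of 0.0486 by edgeR's quasi-likelihood test, where 2.23% of all genes were called. That difference was lost with any 1 of the 4 high- and low-dose soshiho libraries left out (adjusted p of 0.0552 to 0.525) and with DESeq2 (adjusted p = 0.0694). For yijin the same difference was -0.31 and was not called (edgeR adjusted p = 0.332), so the data do not show that yijin and that mean differed in DBP. The mean includes soshiho, with a log2 change of -0.68. This comparison therefore does not decide whether yijin differed from the extracts without a DBP call. In yijin 0 of 9 members were called in that comparison, where 1.93% of genes were called, with 4 at an unadjusted p under 0.05 and 0 by DESeq2. In liriope, longan and zizyphus 0 of 9 were called by edgeR, where 1.86%, 0.414% and 0.36% of genes were, with 3, 2 and 1 at an unadjusted p under 0.05 and 0 by DESeq2.

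DBP and SPHK2 lie on opposite strands of chromosome 19 and share 661 exon bases, 10.1% of those of DBP. SPHK2 was at 29.4 CPM in low-dose and 26.6 CPM in high-dose yijin, and at 29.7 and 25.0 CPM in soshiho. Whether the authors counted by strand is not given in the sources used here, so reads of the shared bases cannot be told apart.

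TEF and HLF, the other PAR bZIP factors, act at the same D-boxes as DBP. TEF was at 16.9 ± 1.2 CPM (SD, n = 3) in low-dose and 12.8 ± 0.51 CPM (SD, n = 3) in high-dose yijin, and at 16.2 ± 1.4 CPM (SD, n = 2) in low-dose and 11.5 ± 0.27 CPM (SD, n = 2) in high-dose soshiho. The doses did not overlap in either extract. TEF fell by 0.40 (SE 0.09) in yijin with an adjusted p of 0.00141 and by 0.50 (SE 0.11) in soshiho with an adjusted p of 0.0017, both on the log2 scale by edgeR's quasi-likelihood test. In soshiho it did not pass without low-dose replicate 3 (adjusted p = 0.0875).

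HLF was at 436 ± 0.53 CPM (SD, n = 2) in low-dose and 357 ± 2.4 CPM (SD, n = 2) in high-dose soshiho, a log2 change of -0.29 (SE 0.04) with an adjusted p of 3.48e-06 by edgeR's quasi-likelihood test. In yijin HLF went from 446 ± 9.6 to 423 ± 3.4 CPM (SD, n = 3 each) and was not called (edgeR adjusted p = 0.193). In soshiho all 3 PAR bZIP genes were thus lower at the high than at the low dose, and in yijin DBP and TEF were. Against vehicle all 3 were called lower at the high dose of soshiho, and DBP and HLF but not TEF at that of yijin. Of all tested genes 21.8% (soshiho) and 23.4% (yijin) were called in those comparisons. Treatment and code set cannot be told apart there.

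**Figure D3:**
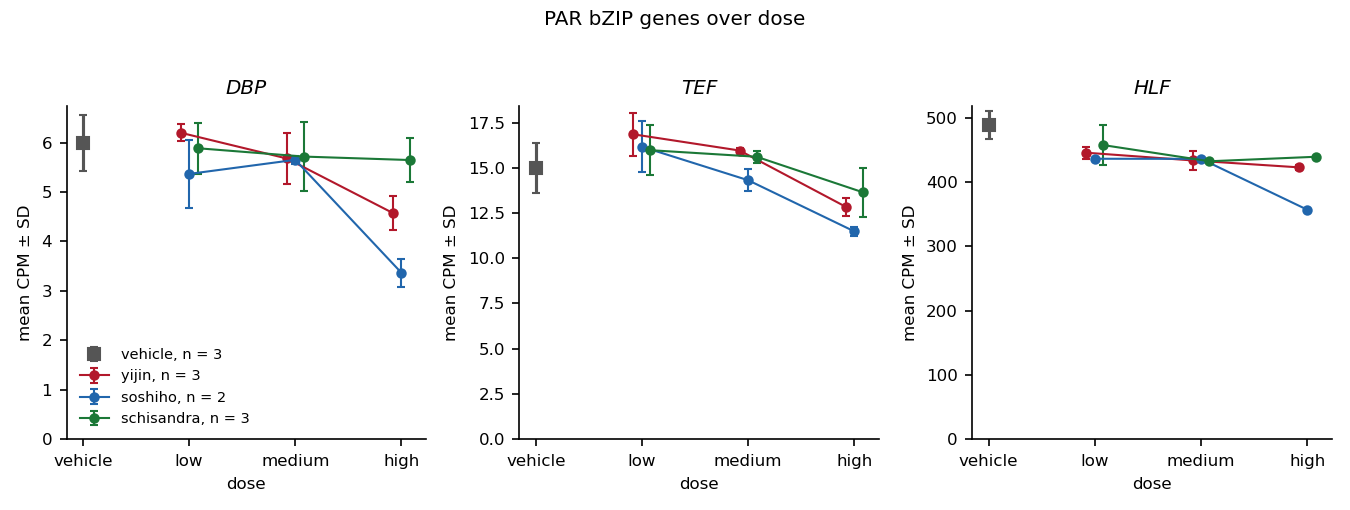
Mean level in CPM (error bars, SD over 3 libraries, 2 for soshiho) of DBP, TEF and HLF in vehicle and over the 3 doses of yijin, soshiho and schisandra. DBP falls to 3.37 CPM and HLF to 357 CPM at the high dose of soshiho, TEF falls in yijin and soshiho, and none of the 3 was called in schisandra.

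BHLHE40 (chr3:4979116-4985323), a basic helix-loop-helix repressor that competes for E-boxes and is also a known target of hypoxia signalling, rose with dose in schisandra. It was at 18.0, 19.9 and 18.5 CPM at the low dose, 20.4, 22.1 and 21.7 CPM at the medium dose and 33.8, 36.6 and 35.8 CPM at the high dose. The 3 doses did not overlap, and the step from medium to high was the larger. The log2 change from low to high was 0.92 (SE 0.13, a fold of 1.89), with an adjusted p of 3.06e-06 by edgeR's quasi-likelihood test. It passed in all 13 alternatives, at 0.88 to 0.96, among them the fit without the outlying low-dose library.

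The schisandra rise also exceeded the mean dose change of the other 5 extracts, by 0.82 (SE 0.15) on the log2 scale with an adjusted p of 0.000586 by edgeR's quasi-likelihood test, where 2.25% of genes were called. It passed in all 13 alternatives. In yijin BHLHE40 was at 19.4, 23.5 and 22.4 CPM at the low dose and 25.8, 29.7 and 27.9 CPM at the high dose. These did not overlap, but the log2 change of 0.35 (SE 0.13) was not called (edgeR adjusted p = 0.112).

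BHLHE40 was uneven between the libraries of zizyphus and longan. High-dose zizyphus libraries read 30.9, 40.7 and 24.7 CPM and low-dose ones 27.5, 29.95 and 22.5 CPM, and low-dose longan libraries read 22.8, 33.2 and 26.0 CPM. In each of these groups replicate 2 was highest, and the doses overlapped. Longan and zizyphus share a code set, and its part in this pattern was not tested. In order of group mean, high-dose schisandra (35.4 CPM) and high-dose zizyphus (32.1 CPM) led and overlapped in their libraries, followed by high-dose yijin (27.8 CPM) and low-dose longan (27.3 CPM), while high-dose liriope (18.6 CPM) was lowest.

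Of 10 hypoxia-responsive genes, chosen because hypoxia signalling is a known input to BHLHE40, 6 rose and 0 fell between low and high schisandra, with a median log2 change of 0.32 beside -0.01 over all tested genes. Of all tested genes 7.33% were called in that comparison and 3.92% were higher. PDK1 rose by 0.65 (adjusted p = 4.9e-07), BNIP3 by 0.47 (adjusted p = 0.000665) and P4HA1 by 0.29 (adjusted p = 0.00133, 0.119 with the schisandra libraries fitted alone), by edgeR's quasi-likelihood test. In yijin 4 of 10 rose and 0 fell, with a median of 0.27, where 7.79% of all tested genes were called and 3.78% were higher. PDK1 there rose by 0.47 (edgeR adjusted p = 0.000148), while P4HA1 (0.22) and BNIP3 (0.33) each lost their call without some single libraries, at an adjusted p of up to 0.0893 and 0.114. Without the 2 outlying libraries 4 of 10 rose in schisandra and 4 of 10 in yijin, and with the libraries of each comparison fitted alone 2 did in schisandra, 5 in yijin and 3 in soshiho. In soshiho and zizyphus 0 of 10 were called by edgeR's quasi-likelihood test and by DESeq2, with 1 and 3 at an unadjusted p under 0.05 and medians of 0.09 and 0.12, and 1 was called in each with no filter on low counts. Over all tested genes edgeR called 5.08% in soshiho and 0.0355% in zizyphus. Against the mean dose change of the other 5 extracts, 3 of 10 rose more in schisandra (P4HA1, PDK1 and VEGFA), where 2.25% of all tested genes were called. By the same edgeR test 0 of 10 were called in each of the other 5 extracts, where 0.36% to 2.23% of genes were. In those extracts 1 to 3 passed an unadjusted p under 0.05. Against vehicle, 7 of 10 were higher and 0 lower in the mean of the low doses (27.6% of all tested genes called, 13.3% higher). At the high dose 7 were higher in schisandra, zizyphus and longan, 6 in yijin, 5 in soshiho and 3 in liriope, with 0 lower. There 16.8% to 23.4% of all tested genes were called and 8.15% to 11.1% were higher. BHLHE40 was called higher in schisandra, zizyphus and yijin only. Treatment and code set cannot be told apart against vehicle. The part of the hypoxia-responsive genes in the BHLHE40 levels was not tested.

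Glucocorticoid signalling is a known input to PER1, and 6 of 8 genes listed for it were tested, among them NR3C1, which codes for the receptor itself. In soshiho 2 of 6 fell and 0 rose: SGK1 fell by 0.70 (adjusted p = 1.4e-08) and KLF9 by 0.60 (adjusted p = 5.02e-06) on the log2 scale, by edgeR's quasi-likelihood test. Over all tested genes 5.08% were called in soshiho and 2.27% were lower. In schisandra 3 fell and 1 rose, where 7.33% of all tested genes were called. SGK1 was at -0.34, NR3C1 at -0.30 and DUSP1 at 0.30, and SGK1 alone was still called without the outlying libraries. In yijin FKBP5 rose by 0.18 and NR3C1 fell by 0.23, the latter not called without any 1 of 5 libraries (edgeR adjusted p of 0.06 to 0.254). Over all tested genes 7.79% were called in yijin. Against vehicle 2 or 3 of 6 were lower and 0 higher at the high dose of each replicated extract, as were 2 in the mean of the low doses. SGK1 was lower in all of these. Of all tested genes 16.8% to 27.6% were called there and 8.21% to 14.3% were lower. PER1 was called lower in high-dose yijin, soshiho and schisandra and in the low-dose mean. Treatment and code set cannot be told apart against vehicle. The part of these genes in the PER levels was not tested.

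Of 22 other clock genes, 20 were tested, and 2 were called between low and high dose in each of yijin (TEF and BMAL1 lower), soshiho (TEF and HLF lower) and schisandra (RORA higher among them), that is 10.0% of them, and 0 in liriope, longan and zizyphus. The latter counts are from edgeR's quasi-likelihood test, DESeq2 gave 0 as well, and 2 passed an unadjusted p under 0.05 in liriope and 0 in longan and zizyphus. Over all tested genes edgeR called 7.79% in yijin, 5.08% in soshiho and 7.33% in schisandra. In liriope, longan and zizyphus it called 0.0295%, 0.0177% and 0.0355%. Without the 2 outlying libraries the counts were 3 in yijin, 2 in soshiho and 1 in schisandra, and DESeq2 gave 1, 2 and 3. BMAL1, the activator itself, was at 5.40 ± 0.35 CPM in low-dose and 4.199 ± 0.66 CPM in high-dose yijin (SD, n = 3 each), a log2 change of -0.37 with an adjusted p of 0.0388 by edgeR's quasi-likelihood test. It was lost in 7 of 13 alternatives, among them the fits without high-dose replicate 1 or 2 or low-dose replicate 2 or 3 (adjusted p of 0.0826 to 0.255). RORA, an activator of BMAL1, was at 9.75 ± 0.86 CPM in low-dose and 12.01 ± 0.65 CPM in high-dose schisandra (SD, n = 3 each), a log2 change of 0.30 with an adjusted p of 0.0436, and was lost in 7 of 13 by edgeR, among them the fits without replicate 2 or 3 of either dose (adjusted p of 0.0663 to 0.145).

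CLOCK (44.4 CPM in vehicle), NPAS2 (94.8 CPM) and NFIL3 (40.5 CPM), a repressor at D-boxes, were called between low and high dose in no replicated extract. BHLHE41, the near relative of BHLHE40, was at 0.175 CPM in vehicle and was not tested.

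Against vehicle, all 3 PER genes were lower over the 6 replicated extracts, already in the mean of the low doses. PER1 was at 15.6, 17.0 and 15.9 CPM in the 3 vehicle libraries and at 11.3 to 15.5 CPM, with a median of 14.1 CPM, in the 51 treated libraries of replicated groups. Every vehicle library lay above every one of those 51. PER3 was at 13.5, 13.4 and 14.6 CPM in vehicle and at 9.23 to 13.7 CPM, with a median of 11.7 CPM, in the treated libraries, of which 1 exceeded the lowest vehicle library. PER2 was at 36.8, 32.6 and 36.1 CPM in vehicle and 25.4 to 37.5 CPM in the treated libraries, of which 5 exceeded the lowest vehicle library. For each PER gene the vehicle mean was above the means of the 18 treated groups of replicated extracts. This did not hold for polygala, where PER1 and PER2 were above the vehicle mean at the high dose. These levels rest on trimmed-mean (TMM) scaling, in which a low factor raises the CPM of a library. The vehicle factors were 0.894, 0.932 and 0.932, in a range of 0.894 to 1.02 over the 54 libraries. By library size alone, the low-dose mean differed from vehicle by -0.08 for PER1, -0.06 for PER2 and -0.09 for PER3 on the log2 scale. The separation of libraries is given under TMM scaling only.

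For the mean of the 6 low doses against vehicle, 4 of 9 members were lower and 0 higher, where 27.6% of all tested genes were called and 14.3% were lower. PER1 changed by -0.21 (SE 0.05, adjusted p = 0.00382), PER3 by -0.21 (SE 0.06, adjusted p = 0.00311), PER2 by -0.19 (SE 0.06, adjusted p = 0.024) and NR1D1 by -0.17 (SE 0.06, adjusted p = 0.0395) on the log2 scale, by edgeR's quasi-likelihood test. The NR1D1 call was lost without any 1 vehicle library (edgeR adjusted p of 0.0662 to 0.138), replicate 3 of low-dose soshiho or replicate 3 of low-dose liriope, the PER2 call without vehicle replicate 1 or 3 and the PER1 call without vehicle replicate 2, which left 2 to 4 members called. Each of the 4 calls was also lost when counts were scaled by library size alone (edgeR adjusted p of 0.252 to 0.603), a scaling that moved the median of all genes by 0.13 on the log2 scale; no direction flipped. Vehicle had its own sample code, so the treatment and the code set cannot be told apart here.

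The high dose against vehicle uses the same vehicle libraries in every extract, and the high-dose libraries of the comparison with the low dose. In yijin 6 of 9 members were called (5 lower, BHLHE40 higher; 23.4% of all genes were called), in soshiho 4 of 9 (all lower; 21.8% of all genes called, 11.1% lower) and in schisandra 3 of 9 (PER1 and PER3 lower, BHLHE40 higher; 22.1% of all genes). In zizyphus 2 of 9 were called (PER3 lower, BHLHE40 higher; 16.9% of all genes), in longan 1 of 9 (PER2 lower; 19.6% of all genes) and in liriope 0 of 9, with 2 at an unadjusted p under 0.05 and 0 by DESeq2 (16.8% of all genes by edgeR's quasi-likelihood test). With single libraries left out the yijin count fell to between 2 and 4. Scaling by library size alone moved the median of all genes by 0.09 to 0.12 on the log2 scale in these comparisons, and with it the calls of PER2, CRY2 and DBP in yijin, PER1 in schisandra, PER2 in longan and PER3 in zizyphus were lost (edgeR adjusted p of 0.0717 to 0.451).

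PER3 was the member most often lower at the high dose than in vehicle: the log2 change was -0.51 (SE 0.07, adjusted p = 1.34e-06) in yijin, -0.39 (SE 0.07, adjusted p = 0.00014) in schisandra, -0.38 (SE 0.08, adjusted p = 0.000653) in soshiho and -0.28 (SE 0.07, adjusted p = 0.00568) in zizyphus, by edgeR's quasi-likelihood test. PER1 changed by -0.39 in soshiho (adjusted p = 0.000385) and -0.35 in yijin (adjusted p = 0.000342), both called in every alternative, and by -0.25 in schisandra (edgeR adjusted p = 0.0108, but 0.052 without vehicle replicate 2 and 0.0753 without high-dose replicate 2). In soshiho PER2 was lower by a log2 change of -0.44 (edgeR adjusted p = 0.000642) and DBP by -0.82 (edgeR adjusted p = 4.77e-05), both called in all 12 alternatives.

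BHLHE40 at the high dose was above vehicle by 0.75 in schisandra, 0.60 in zizyphus and 0.40 in yijin (edgeR adjusted p = 4.57e-05, 0.00132 and 0.0259). The yijin call was lost without vehicle replicate 1 or 2 or high-dose replicate 2 or 3 (edgeR adjusted p of 0.0587 to 0.109). The yijin calls of PER1 and PER3 passed in all 13 alternatives, and those of PER2, CRY2 and DBP did not. PER2 was lost without vehicle replicate 1 or high-dose replicate 2 or 3 (edgeR adjusted p of 0.0523 to 0.0851), CRY2 without vehicle replicate 2 or 3 or high-dose replicate 1 or 3 (0.0853 to 0.217), and DBP without vehicle replicate 3 or high-dose replicate 1 or 3 (0.0534 to 0.111). In longan PER2 (-0.23, edgeR adjusted p = 0.0423) was lost without vehicle replicate 1 or 3 or any high-dose library (0.0584 to 0.164).

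Aucklandia and polygala had 1 library per dose, so their differences have no replicate check and no test. At the high dose the 2 libraries differed broadly from the rest: 72.2% and 71.2% of 10700 genes of at least 5 CPM in vehicle lay outside the range of the 54 replicated libraries, and the hepatocyte marker sum was 21076 CPM in aucklandia and 17960 CPM in polygala, below that range. The part of this broad shift in the clock gene levels was not tested. Differences are given as log2(CPM + 1) of the high minus the low dose.

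At the high dose of aucklandia 5 of 9 members lay outside the range of the 54 libraries (3 above, 2 below), beside 72.2% of the 10700 genes in that library, so the members were not outside it more often than other genes. PER2 was at 33.3, 24.5 and 7.53 CPM from the low to the high dose, a difference of -2.01. NR1D1 was at 21.6, 22.5 and 69.3 CPM, a difference of 1.64, and BHLHE40 at 20.7, 21.0 and 98.0 CPM, a difference of 2.19. These 3 of 9 members were at least 2-fold apart, as were 18.8% of the 10700 genes, and each lay outside the range of the 54 replicated libraries at the high dose, PER2 already at the medium dose.

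CRY1 was at 22.8, 19.6 and 43.8 CPM in aucklandia, the only other tested member above that range, while PER1, at 14.4, 12.7 and 11.2 CPM, ended just below it. PER3 (11.3, 11.4 and 10.7 CPM), CRY2 (22.1, 25.9 and 20.4 CPM), NR1D2 (16.3, 16.7 and 20.0 CPM) and DBP (5.62, 5.26 and 3.56 CPM) were inside it at the high dose. CIART had 8 counts in the high-dose library, 0.369 CPM, the highest of any library. NR1D1 shares 263 exon bases (9.5% of its exons) with THRA on the opposite strand, and THRA was at 35.8 CPM at the low and 19.1 CPM at the high dose.

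Among the other clock genes, TEF was at 15.5, 15.2 and 2.82 CPM and HLF at 401, 367 and 139 CPM over the aucklandia doses. BMAL1, in turn, was at 4.96, 3.98 and 11.7 CPM and NFIL3 at 42.0, 38.8 and 73.9 CPM. All 3 PAR bZIP genes, DBP, TEF and HLF, were therefore lowest at the high dose, and the repressor NFIL3 was highest there. CLOCK (41.6 and 58.0 CPM), NPAS2 (74.9 and 72.9 CPM) and RORA (7.74 and 11.96 CPM) at the low and the high dose were less than 2-fold apart. Of 20 other clock genes of at least 5 CPM in vehicle, 5 were at least 2-fold lower and 1 at least 2-fold higher. Of the 10700 genes, 10.8% were at least 2-fold lower and 8.01% at least 2-fold higher, with 1 library per dose.

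**Figure D4:**
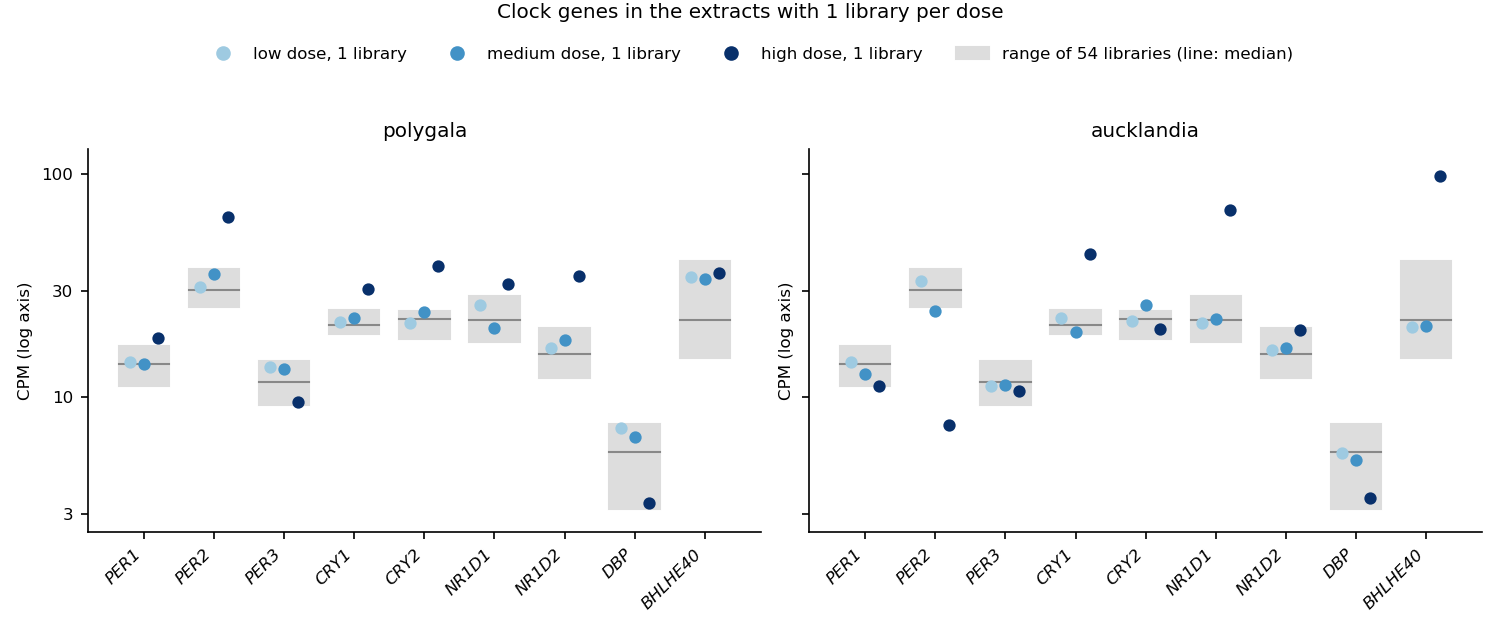
Level in CPM (log axis) of the 9 tested clock genes in polygala (left) and aucklandia (right), 1 library per dose, with the range (grey) and median (line) of the 54 replicated libraries. At the high dose PER2 leaves the range upwards in polygala (64.4 CPM) and downwards in aucklandia (7.53 CPM), and BHLHE40 reaches 98.0 CPM in aucklandia only.

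At the high dose of polygala 6 of 9 members lay outside the range of the 54 libraries, all above it. In either direction 71.2% of the 10700 genes lay outside it in that library, a share close to that of the members. The share of genes above it alone was not counted. PER2 was at 31.3, 35.7 and 64.4 CPM from the low to the high dose, a difference of 1.02, and NR1D2 at 16.6, 18.0 and 35.0 CPM, a difference of 1.03. These 2 of 9 members were at least 2-fold apart, both of them higher. Of the 10700 genes 13.6% were at least 2-fold apart, 3.24% higher and 10.4% lower. CRY2 was at 21.6, 24.1 and 38.9 CPM, CRY1 at 21.8, 22.7 and 30.7 CPM, NR1D1 at 25.9, 20.6 and 32.2 CPM and PER1 at 14.5, 14.2 and 18.6 CPM. Without trimmed-mean scaling PER2 differed by 1.251 and NR1D2 by 1.26, and against the vehicle mean PER2 differed by 0.86, under 2-fold.

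PER3 and DBP were lower at the high dose of polygala. PER3 was at 13.7, 13.4 and 9.58 CPM and DBP at 7.26, 6.64 and 3.37 CPM, both within the range of the 54 libraries at each dose. BHLHE40 was at 34.7, 34.1 and 36.0 CPM, level over dose and above the 20.2 to 22.2 CPM of vehicle. PER2 thus stood at 64.4 CPM in high-dose polygala and at 7.53 CPM in high-dose aucklandia, on either side of the 54 libraries, at doses of 250 and 280 µg/mL, while DBP was low in both.

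The genes whose group means followed each member most closely over the 19 replicated groups are given as a description, with Pearson's r of mean log2 CPM. No test is given, since groups share code sets within and between extracts and are not independent. BHLHE40 was most like LOX (0.89), MIR210HG (0.89) and ISM2 (0.88), and DBP most like ACSL4 (0.92), TP53INP2 (0.92) and RAB11FIP4 (0.91). PER1 was most like FAM193B (0.93), PER2 like APOB (0.91), PER3 like EIF4EBP2 (0.88), CRY2 like ACSS1 (0.93), NR1D1 like AKAP1 (0.82), NR1D2 like FNIP1 (0.84) and CRY1 like FRG1HP (0.75). Among the members themselves r was highest between PER1 and PER3 (0.71) and lowest between PER1 and NR1D2 (-0.53).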

How the data were processed

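RNA from HepG2 cells was read on an MGIseq instrument from directional libraries. The authors deposited 1 table of expected counts per gene, and the submitters' processing notes name FastQC 0.11.9, Trim Galore 0.6.5, STAR 2.7.3a, RSEM 1.3.3 and hg38, with no annotation release. Whether the authors counted by strand is not given in the sources used here, and 10.4% of the deposited expected counts held a fraction, since RSEM shares reads between genes. Groups came from the sample labels. Expected counts were rounded and fitted with edgeR 4.0.16 (R 4.3.3; filterByExpr by group, TMM factors, quasi-likelihood test) over the 54 libraries of 19 replicated groups, because single groups of 2 or 3 give a poor estimate of spread. p-values were adjusted over 16925 genes by Benjamini-Hochberg, with 0.05 as the threshold, and the SE is the log2 change divided by the square root of F. The 19 comparisons were high against low dose, high dose against vehicle and the dose change against the mean of the other 5 extracts in each of 6 extracts, and the mean of the 6 low doses against vehicle. CPM values are counts over TMM-scaled library totals. Polygala and aucklandia were compared on log2(CPM + 1) with no test, and the background for a 2-fold difference was the 10700 genes of at least 5 CPM in vehicle.

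Of 51 replicate pairs 0 held identical values, and counts differed by more than sampling noise in each pair (chi-square per degree of freedom of 2.70 to 63.9). A library was set apart when the SD of its log2 difference from the rest of its group exceeded 0.2 over genes of at least 10 CPM, which 2 libraries did. Alternatives were RLE size factors, library size alone, no filter, DESeq2 1.42.0, the libraries of a comparison alone, a replicate block, leaving out the 2 outlying libraries and leaving out each replicate in turn; those for polygala and aucklandia were chosen after seeing the data. On counts simulated for 16925 genes, 48%, 60%, 80% and 92% of genes changed 1.25-, 1.5-, 2- and 4-fold were called for high against low yijin, and 34%, 56%, 76% and 88% for soshiho. Named genes are all members, a fixed set of other clock genes always and others of that list only where called between high and low dose (at most 4), up to 3 of the glucocorticoid and hypoxia lists by adjusted p, and the 3 genes with the highest r to each member; single cell type markers were named after their values were seen, and some genes the rule would name are not reported here. The members and gene lists were chosen with earlier results of these data known. Gene positions are from GENCODE 29 on GRCh38.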

Additional observations from a re-analysis of the deposited data

Results flagged for a closer look

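The dose change of BHLHE40 in schisandra differed from the mean dose change of the other 5 replicated extracts by 0.82 on the log2 scale (SE 0.15, edgeR quasi-likelihood adjusted p = 0.000586), a test of the difference between extracts itself. The 3 high-dose libraries lay above the 6 lower-dose schisandra libraries, and the difference passed in all 13 alternatives.

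The dose change of DBP in soshiho differed from that mean by -0.60 on the log2 scale (SE 0.17, edgeR quasi-likelihood adjusted p = 0.0486). Both high-dose libraries lay below the 4 lower-dose soshiho libraries, but the call held in only 4 of 11 alternatives, and leaving out any 1 of the high- or low-dose libraries ended it.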

How the results depend on the processing

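No result changed direction. Among counts of clock genes called, soshiho high against low (1) became 2 with the libraries of that comparison alone. Liriope against vehicle (0) became 1 with RLE size factors and 2 without the outlying libraries. Longan against vehicle (1) became 2 with RLE, with no filter and with DESeq2, and 3 with its own libraries alone, with the replicate block and without the outlying libraries. The soshiho dose change against the other extracts (1) became 0 with no filter, with DESeq2 and with its own libraries alone, that of liriope (0) became 1 with no filter and with the replicate block, and that of longan (0) became 1 with no filter. The count of polygala members at least 2-fold apart (2) became 1 against vehicle.

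With each library left out in turn, the high against low counts ran from 1 to 2 in yijin, from 0 to 1 in soshiho and from 1 to 1 in schisandra. Against vehicle they ran from 2 to 4 in yijin, 4 to 5 in soshiho, 0 to 1 in liriope, 2 to 3 in schisandra, 0 to 1 in longan and 2 to 2 in zizyphus, and from 2 to 4 for the mean of the low doses. The soshiho dose change against the other extracts gave 0 in each such fit. Counting each named gene once per alternative, 322 values stayed the same in the fits that keep all replicates, 50 lost their call and 5 moved, the last in polygala and aucklandia, which had no test. With a library left out 253 stayed the same and 93 lost their call.

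High- and low-dose samples with the same replicate number share only a number: their deviations correlated at -0.67 to 0.70, and samples matched best with their own number for 3 of 3 numbers in longan, 2 of 2 in soshiho, 2 of 3 in yijin and schisandra and 1 of 3 in liriope and zizyphus. The replicate block gave 4 called clock genes in place of 3 for high against low yijin, and changed no other count than those above.

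Counts over all genes moved by more than 1.5 times in these cases. With no filter, high against low went from 5 to 206 in liriope, 3 to 66 in longan and 6 to 78 in zizyphus, and the dose change against other extracts from 314 to 510 in liriope, 381 to 587 in schisandra, 70 to 152 in longan and 61 to 120 in zizyphus. With DESeq2 the former became 14, 6 and 13, and longan 110. With the libraries of a comparison alone, high against low went from 860 to 1701 in soshiho, 1240 to 132 in schisandra and to 0 in liriope and zizyphus, against vehicle from 2840 to 362 in liriope and 2859 to 1618 in zizyphus, and the dose change from 327 to 205 in yijin, to 214 in schisandra, 36 in longan and 30 in zizyphus. The replicate block gave 11 in liriope and 11 in zizyphus, and 585 in schisandra and 118 in longan for the dose change. Without the outlying libraries schisandra gave 731 and zizyphus 15, and the dose change 192 in schisandra and 121 in longan. Library size alone moved the higher share of calls from 48.2% to 88.4% for the low doses against vehicle, from between 47.7% and 51.1% to between 77.4% and 88.4% for the high doses, and from 48.6% to 35.9% in yijin, 55.3% to 44.1% in soshiho and 53.5% to 29.1% in schisandra for high against low. The cause was not tested.

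Among the members CIART (at most 8 counts) and DBP (at most 248 counts) carried the fewest reads, and CIART could not be tested at this depth.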

Other observations

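NPAS2, the partner of BMAL1 that stands in for CLOCK, was at 94.8 ± 2.1 CPM (SD, n = 3) in vehicle and at 72.7 ± 1.0 CPM (SD, n = 3) in high-dose yijin. It was lower than vehicle at the high dose of all 6 replicated extracts, by log2 changes of -0.29 to -0.39 (edgeR quasi-likelihood adjusted p of 4.59e-07 to 7.83e-05), and in the mean of the low doses by -0.27 (edgeR adjusted p = 1.13e-06). CLOCK, at -0.14 to -0.08 against vehicle, was called in none of them. NPAS2 was not alone: GSK3B and HLF were also called lower, and BMAL2 higher, in each of these comparisons. Between 16.8% and 27.6% of all tested genes were called in them. These comparisons share the vehicle libraries, and treatment and code set cannot be told apart in them. NFIL3, a repressor at D-boxes, was lower than vehicle in high-dose soshiho only among the 6, by a log2 change of -0.22 (edgeR adjusted p = 0.0174); the difference between extracts was not tested.

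In polygala, RORA was at 9.41, 10.9 and 17.3 CPM from the low to the high dose, BMAL1 at 4.86, 4.17 and 3.21 CPM and NFIL3 at 44.5, 44.8 and 65.9 CPM. BMAL1 thus lay below the range of the 54 replicated libraries in high-dose polygala and above it in high-dose aucklandia. HLF (449, 411 and 381 CPM) and TEF (14.9, 18.2 and 12.8 CPM) were inside it at the high dose of polygala and below it in aucklandia.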
